A study of Mus musculus with 6 samples.

Results

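NRF2 (gene Nfe2l2), its inhibitor KEAP1, the KEAP1-binding autophagy receptor p62 (Sqstm1) and 6 classical NRF2 targets were examined in mouse embryonic fibroblasts. The 9 genes were taken by symbol from a table of 50763 genes, and all 9 passed the filter on low counts, which left 16730 genes for the test. Such fibroblasts are primary connective-tissue cells cultured from dissociated embryos. Here the embryos were of the C57BL/6J strain at midgestation, and RNA was extracted after a short culture. One group carried K68R, in which CRISPR editing of the mouse gene replaced a lysine of SOD2, the mitochondrial manganese superoxide dismutase, with arginine, a residue that cannot be acetylated there. The other group was wild type (WT). The labels do not state whether the knock-in was on 1 or both alleles. Each group had 3 libraries, and the samples are called biological replicates. Nothing says whether they came from separate embryos or cultures, so p-values reflect the spread of these samples alone, and that spread may be technical.

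NRF2 is a basic leucine zipper transcription factor. In unstressed cells KEAP1, an adaptor of the CUL3 ubiquitin ligase, binds NRF2 and sends it to the proteasome. Oxidants and electrophiles modify cysteines of KEAP1, NRF2 then escapes degradation, pairs with a small MAF protein and binds antioxidant response elements in its target genes. Its targets make and recycle glutathione, detoxify quinones, break down haem and store iron. p62 can hold KEAP1 away from NRF2 and is itself an NRF2 target. NRF2 is controlled mainly at the level of the protein, which was not measured here. In fibroblasts the same programme is known for its protection against oxidative stress.

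The element that defines the targets has the core TGACNNNGC. It was searched on both strands of the RefSeq promoter windows of build GRCm38.p6, which run from 250 bases before to 50 bases after each gene start. Windows were found for 7 of the 9 genes, not for Hmox1 and Gclc. The core was present in the windows of Nfe2l2 and Gclm, so in 2 of 7 genes, and it was present in 14.0% of all 27025 genes with a window. Among 37 further NRF2 targets, 31 had a window and 11 held the core. The sequences below show the core in capitals, in the direction of transcription, for the 2 members and for 4 of those further targets whose levels or fold changes are given later. Abcc4, whose values are also given later, held the core too and is not printed. The core of Nfe2l2 starts at position -240 and that of Gclm at position -134 from the gene start. The core of Ugdh printed here starts at position -132 and that of Mgst1 at position -56. The core of Txnrd1 starts at position -92 and that of Prdx1 at position -133. In Gclm, Mgst1, Txnrd1 and Prdx1 the core lies on the opposite strand, so its reverse complement is in capitals. In Prdx1 it overlaps the AP-1 motif TGANTCA.
Nfe2l2 (chr2:75704875-75704913, minus strand): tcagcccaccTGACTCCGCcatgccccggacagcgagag
Gclm (chr3:122245403-122245451, plus strand): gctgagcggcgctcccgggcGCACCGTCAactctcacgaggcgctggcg
Ugdh (chr5:65435946-65435994, minus strand): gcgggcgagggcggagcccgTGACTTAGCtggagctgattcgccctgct
Mgst1 (chr6:138140451-138140499, plus strand): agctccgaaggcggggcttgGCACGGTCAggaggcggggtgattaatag
Txnrd1 (chr10:82859094-82859142, plus strand): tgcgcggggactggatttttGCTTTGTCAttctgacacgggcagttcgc
Prdx1 (chr4:116685446-116685494, plus strand): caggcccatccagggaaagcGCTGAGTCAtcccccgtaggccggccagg
A match is a description of these letters and does not show that a factor binds there. The core was not found in the windows of Keap1, Sqstm1, Slc7a11, Nqo1 and Osgin1, which says nothing of elements farther from the start.

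The 6 libraries held between 26200088 and 40691447 counted read pairs. Levels are given in CPM, counts scaled to library sizes that were normalized by the TMM method, and 3 counts corresponded to between 0.0728 and 0.116 CPM. All 11 fibroblast markers were above 1 CPM in at least 1 library, but 4 were called higher and 6 lower in K68R, with a sum of 11058 to 11175 CPM against 8140 to 8288 CPM in WT. Among them Col1a1 averaged 2445 against 165 CPM and Col1a2 2408 against 611 CPM, while Pdgfra averaged 65.3 against 363 CPM and Thy1 198 against 606 CPM. All 9 erythroid markers were below 1 CPM in every library. Summed skeletal muscle markers were at 211 to 213 CPM in K68R against 53.4 to 54.8 CPM in WT and epithelial markers at 18.4 to 20.5 against 46.0 to 47.6 CPM. Of 6 endothelial markers tested 2 were higher and 1 lower, and Kdr, at 90.7 against 20.4 CPM, made up most of their sum. Pecam1 averaged 0.488 against 0.677 CPM and Cdh5 0.974 against 1.09 CPM. The part of these markers in the results was not tested. Sod2 was measured at 47.2 ± 1.62 CPM in K68R against 70.0 ± 1.58 CPM in WT (SD, n = 3), and these counts do not show the knock-in codon. Sod2 had a log2 fold change of -0.57, and -0.22 and -0.44 with the union and transcript offsets described next. Of the 16730 genes tested, 81.4% were called at an adjusted p under 0.05, with 40.8% higher and 40.5% lower in K68R, so a call by itself sets no gene apart. Fold changes also followed exon length and GC content, which together accounted for 39.7% of their variance over 15589 genes. For this reason the results on the 9 genes are given again with offsets, 1 per gene and library, that take out a surface fitted smoothly over both properties. The first offsets used the exonic length of the count table, which is the union of all annotated exons. The second used the longest protein-coding transcript of GENCODE M21 and were added after the data were seen, because the union length of Sqstm1 is 2.13 times and that of Nqo1 2.16 times the transcript length. In bulk RNA, fewer cells of a type and less RNA per cell cannot be told apart.

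Transcripts of the cystine importer and of the catalytic subunit of glutathione synthesis were higher in K68R, and that of the partner subunit was lower. Slc7a11 was 1.53-fold and Gclc 1.25-fold higher, and Gclm was 1.39-fold lower. These 3 genes were called in the same direction without offsets and with both kinds of offsets. Of the 9 genes, 5 were called higher, 3 lower and 1 (Hmox1) not called (edgeR, Benjamini-Hochberg), beside 40.8% and 40.5% of all genes. The median log2 fold change of the 9 was 0.23, and that of all genes tested was -0.01. With union offsets these medians were -0.06 and -0.07, and with transcript offsets 0.08 and -0.07. Without offsets none of the 9 reached 2-fold in the fit to all 6 libraries, beside 3704 of all genes higher and 1267 lower by 2-fold or more. Keap1 passed 2-fold with union offsets (log2 fold change -1.08), and Osgin1 without K68R replicate 1 (1.02). Against a bound of 1.5-fold, 2 were called higher (Keap1 and Osgin1) and 0 lower, beside 26.1% and 14.9% of all genes (41% in either direction). With union offsets 3 were higher and 5 lower, beside 33.6% and 42.3% of all genes (75.8% in either direction). With transcript offsets 4 were higher and 2 lower, beside 32.8% and 42.4% (75.2% in either direction). In 8 of the 9 genes the K68R and WT values did not overlap, as in 82.3% of all genes.

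**Figure D1:**
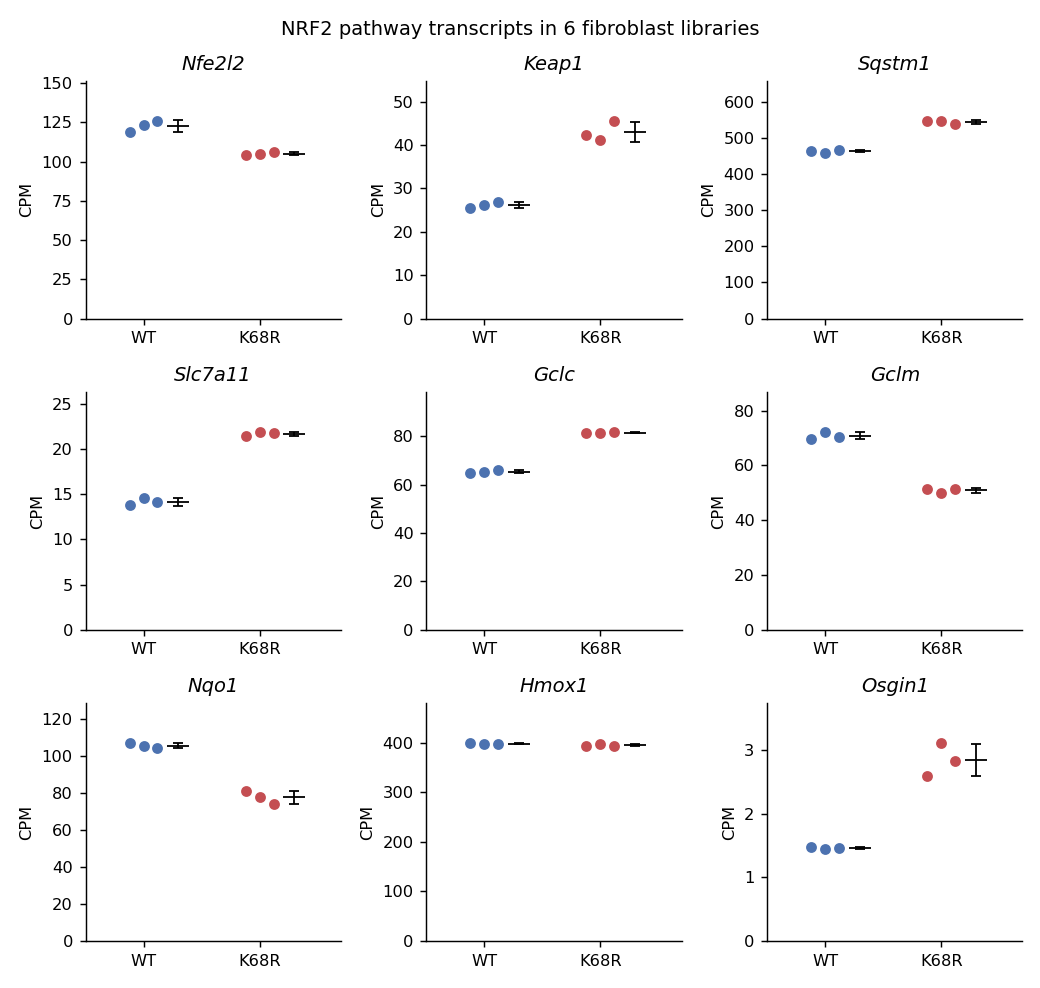
Level of each of the 9 transcripts in CPM (vertical axes, from 0) in the 3 WT (blue) and 3 K68R (red) libraries; bars show the mean and SD of 3 libraries. Points of the genotypes overlap only for Hmox1, at 393 to 399 CPM.

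Nfe2l2, which encodes NRF2 (chromosome 2, 75505860 to 75535007, minus strand, build mm39, 6 exon blocks), was lower in K68R by a small amount. The K68R libraries had 104, 105 and 106 CPM, the WT libraries 119, 123 and 126 CPM. Every K68R library lay below every WT library. The means were 105 ± 0.784 and 123 ± 3.72 CPM (SD, n = 3). The log2 fold change was -0.22 with a standard error of 0.0279 (edgeR, adjusted p = 7.81e-11). Among all genes tested, 81.1% had a larger change in absolute size. With union offsets the log2 fold change was -0.06 (edgeR, adjusted p = 0.0369), and with transcript offsets it turned to 0.08 (adjusted p = 0.0107). The transcripts of 10906 genes at 5 CPM or more were compared with that of Nfe2l2 over the 6 libraries by Euclidean distance of centred log2 CPM. The closest were Gpaa1, Drg2 and Soat1, with distances of 0.0200, 0.0223 and 0.0305. Gpaa1 encodes a subunit of the GPI transamidase, Drg2 a GTPase, and Soat1 an enzyme that esterifies cholesterol, and their log2 fold changes were -0.23, -0.22 and -0.21. The likeness was measured on levels without offsets. With union offsets Gpaa1, Drg2 and Soat1 were at -0.78, -0.05 and 0.04, and with transcript offsets at -1.04, -0.06 and -0.53 (log2). Gpaa1 thus moved away from Nfe2l2 with both kinds of offsets, and Soat1 with transcript offsets. Drg2 stayed near Nfe2l2 with union offsets, but with transcript offsets it was not called and had the opposite sign. Soat1 was also not called and opposite in sign to Nfe2l2 with union offsets.

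Keap1, the substrate adaptor that marks NRF2 for degradation (chromosome 9, 21141026 to 21150628, minus strand, 5 exon blocks), was higher in K68R in the counts as deposited. It stood at 42.2, 41.2 and 45.6 CPM in K68R and at 25.4, 26.2 and 27.0 CPM in WT. The groups did not overlap, and the lowest K68R library was above the highest WT library. The level was 1.65-fold higher, with a log2 fold change of 0.72 and a standard error of 0.0464 (edgeR, adjusted p = 5.31e-23). Keap1 has 4470 exonic bases and 58.0% GC. In the 901 genes of its class (4000 to under 8000 bases, 55% GC or more) the median log2 fold change was 1.95, with quartiles of 0.98 and 2.97, so Keap1 lay below the lower quartile of its class. With union offsets its log2 fold change turned to -1.08 (edgeR, adjusted p = 1.14e-28), and with transcript offsets to -0.93 (adjusted p = 2.64e-27). The direction of Keap1 therefore depended on whether length and GC content were adjusted for. Gm16754, a gene on the opposite strand, covers 11.4% of the exonic bases of Keap1, and reads there could not be assigned by strand.

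Sqstm1 encodes p62, the autophagy receptor that binds KEAP1 (chromosome 11, 50090979 to 50105303, minus strand, 8 exon blocks). Its level was 547, 547 and 538 CPM in K68R and 464, 459 and 466 CPM in WT. All K68R libraries were above all WT libraries, with a spread of about 1% within each genotype (coefficients of variation of 1.02% and 0.726%). The means of 544 ± 5.57 and 463 ± 3.36 CPM (SD, n = 3) gave a log2 fold change of 0.23 with a standard error of 0.0188 (edgeR, adjusted p = 2.62e-18). With union offsets it turned to -0.86 (edgeR, adjusted p = 1.97e-43). The union length of Sqstm1 is 5686 bases, of which 1 annotated exon record holds 3924, and its longest coding transcript has 2673. With transcript offsets the log2 fold change was 0.02 (edgeR, adjusted p = 0.356), so the call was lost.

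The ratio of Nfe2l2 to Keap1 counts, each per exonic base, was 2.89, 2.99 and 2.72 in K68R and 5.48, 5.52 and 5.48 in WT. The K68R mean of 2.87 ± 0.136 was below the WT mean of 5.49 ± 0.0222 (SD, n = 3). The difference of the log2 ratios was -0.94, with p = 0.1 in a two-sided exact permutation test over 20 assignments, the smallest p that 3 against 3 libraries allow (0.1 after adjustment over the 2 ratios tested). With union offsets the difference was 1.01 and with transcript offsets also 1.01, so the ratio changed sign as Keap1 did.

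**Figure D2:**
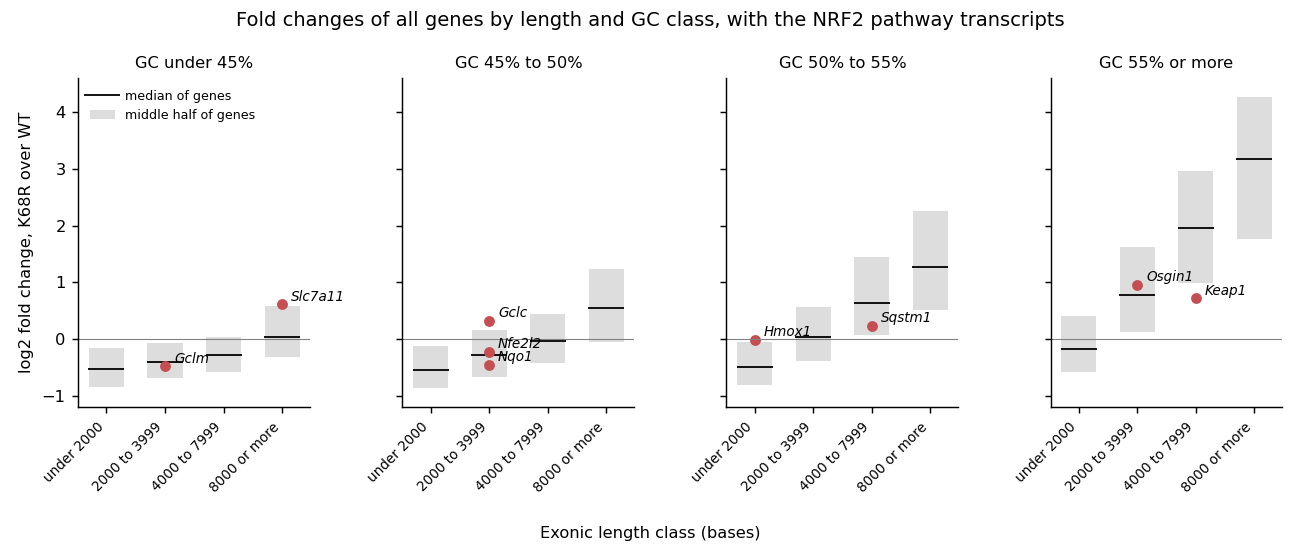
Log2 fold change of K68R over WT (vertical axis) for the 15589 genes tested that had a GC value, in classes of exonic length in bases (horizontal axis) and GC content (panels); grey boxes span the quartiles, black lines are medians and red points are the 9 transcripts. Class medians run from -0.54 to 3.18; Keap1 lies below the box of its class, Gclc and Slc7a11 lie above theirs, and Hmox1, at -0.01, lies above its box.

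Slc7a11, the cystine-glutamate exchanger xCT that supplies cysteine for glutathione (chromosome 3, 50319385 to 50403947, minus strand, 14 exon blocks), was higher in K68R. The K68R libraries had 21.4, 21.9 and 21.7 CPM and the WT libraries 13.8, 14.6 and 14.1 CPM. The groups were far apart compared with the spread within either. The log2 fold change was 0.62 with a standard error of 0.0621 (edgeR, adjusted p = 2.80e-14), and 0.62 and 0.49 with union and transcript offsets (adjusted p = 2.34e-13 and 2.18e-10). The 828 tested genes with at least 8000 bases and under 45% GC had a median of 0.04 and an upper quartile of 0.59. Slc7a11, with 9381 exonic bases and 40.7% GC, was just above that quartile. Against a bound of 1.5-fold in place of no change, Slc7a11 was not called (edgeR, adjusted p = 0.268).

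Glutamate-cysteine ligase, the rate-limiting enzyme of glutathione synthesis, has a catalytic subunit from Gclc and a modifier subunit from Gclm. Gclc (chromosome 9, 77661817 to 77701771, plus strand, 18 exon blocks) stood at 81.2, 81.6 and 81.9 CPM in K68R and at 64.9, 65.1 and 66.1 CPM in WT. Every K68R value was above every WT value. Its log2 fold change was 0.32 with a standard error of 0.0323 (edgeR, adjusted p = 3.23e-14), and it was 0.40 and 0.43 with union and transcript offsets (adjusted p = 9.71e-17 and 8.90e-19). Gclm (chromosome 3, 122039206 to 122060864, plus strand, 7 exon blocks) had 51.3, 49.97 and 51.3 CPM in K68R and 69.8, 72.2 and 70.3 CPM in WT. Here the K68R libraries were all below the WT libraries. Its log2 fold change was -0.48 with a standard error of 0.0352 (edgeR, adjusted p = 4.06e-20), and it was -0.10 and -0.32 with union and transcript offsets (adjusted p = 0.00754 and 2.44e-12). The smaller value belongs to the union length of 2072 bases in the count table, while the longest coding transcript of Gclm has 5589. The 1115 genes in the length and GC class of Gclm (2000 to under 4000 bases, under 45% GC) had a median of -0.41, close to that of Gclm.

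The 2 subunits thus moved in opposite directions. The ratio of Gclc to Gclm counts, per exonic base, was 0.885, 0.911 and 0.892 in K68R and 0.520, 0.503 and 0.525 in WT. The K68R mean of 0.896 ± 0.0137 was 1.74-fold that of WT, 0.516 ± 0.0114 (SD, n = 3). The difference of log2 ratios was 0.80, with p = 0.1 in the two-sided exact permutation test, again the smallest possible, and it was 0.50 and 0.75 with union and transcript offsets. It kept its sign without each library in turn, between 0.78 and 0.81.

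**Figure D3:**
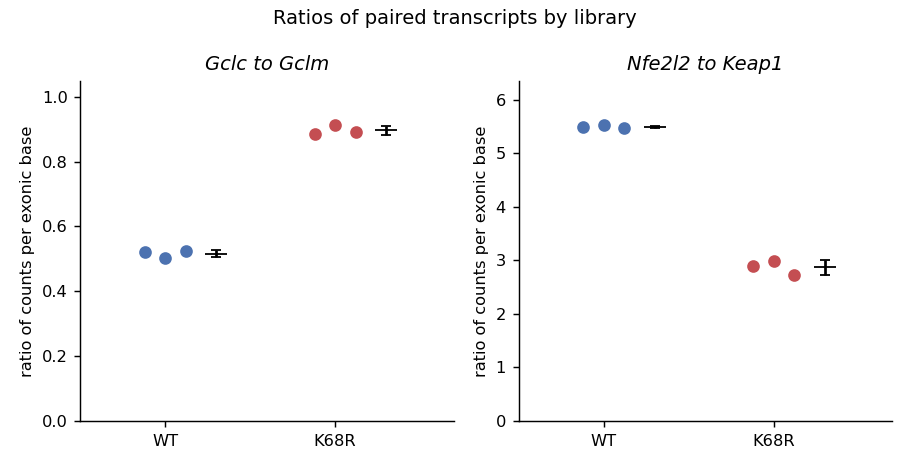
Ratios of counts per exonic base (vertical axes, from 0) of Gclc to Gclm and of Nfe2l2 to Keap1 in each WT (blue) and K68R (red) library, with mean and SD. The genotypes do not overlap in either ratio; the first is near 0.896 in K68R and 0.516 in WT, the second near 2.87 and 5.49. The second reverses with length and GC offsets.

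Nqo1, the quinone reductase widely used as a reporter of NRF2 activity (chromosome 8, 108114856 to 108139012, minus strand, 8 exon blocks), was lower in K68R in the counts as deposited. It was at 81.0, 77.6 and 73.7 CPM in K68R and at 107, 105 and 104 CPM in WT. No K68R library reached the lowest WT library. The level was 1.36-fold lower, a log2 fold change of -0.45 with a standard error of 0.0312 (edgeR, adjusted p = 2.46e-21). With union offsets the log2 fold change was -0.25 (adjusted p = 2.16e-10), and with transcript offsets it was -0.01 and not called (edgeR, adjusted p = 0.844).

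Hmox1, haem oxygenase 1, which breaks haem down to biliverdin, iron and carbon monoxide (chromosome 8, 75820246 to 75827221, plus strand, 5 exon blocks), was at nearly the same level in both genotypes. The K68R libraries had 393, 397 and 394 CPM and the WT libraries 399, 396 and 398 CPM, so that the groups overlapped. The means were 395 ± 2.09 and 398 ± 1.45 CPM (SD, n = 3). The log2 fold change was -0.01 with a standard error of 0.0195 and a 95% interval from -0.05 to 0.03 (edgeR, adjusted p = 0.571). Among genes tested, 99.0% had a larger change in absolute size. The call changed with scaling. Upper quartile normalization shifted all genes by a median of -0.11 and put Hmox1 at -0.13 (edgeR, adjusted p = 3.33e-08), and without the filter Hmox1 was at -0.05 (adjusted p = 0.0487). With union and transcript offsets Hmox1 was higher in K68R, at 0.29 and 0.25 (edgeR, adjusted p = 7.32e-20 and 2.09e-18). The 1196 genes of its class (under 2000 bases, 50% to 55% GC) had a median of -0.49. Macrophages also express Hmox1, and the 12 macrophage markers summed to 144 to 152 CPM in K68R and 169 to 171 CPM in WT. Of these markers 2 were called higher and 4 lower, none was at 0 in all libraries, and their part in the result was not tested.

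Osgin1, an oxidative stress-induced growth inhibitor (chromosome 8, 120160874 to 120172996, plus strand, 8 exon blocks), had the largest fold change of the 9 and the lowest counts. Its counts were 67, 97 and 87 read pairs in K68R and 61, 45 and 49 in WT. In CPM these were 2.60, 3.11 and 2.82 against 1.48, 1.44 and 1.46, and the groups did not overlap. The log2 fold change was 0.96 with a standard error of 0.178 and a 95% interval from 0.61 to 1.31 (edgeR, adjusted p = 1.75e-06). With union and transcript offsets it was 0.33 and 0.28 and was not called (edgeR, adjusted p = 0.0889 and 0.158). Osgin1 has 59.3% GC by its longest transcript, and the 1193 genes of its class (2000 to under 4000 bases, 55% GC or more) had a median of 0.77.

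**Figure D4:**
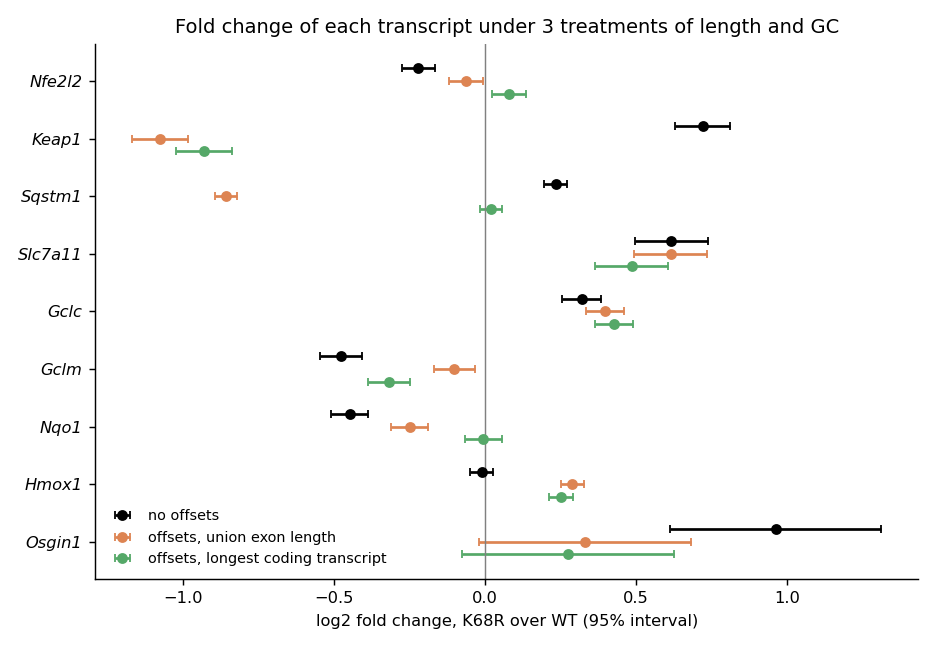
Log2 fold change of K68R over WT (horizontal axis) of each transcript without offsets (black), with offsets from union exon length and GC (orange) and with offsets from the longest coding transcript (green); bars are 95% intervals. Slc7a11 and Gclc lie above 0 and Gclm below 0 under all 3, while Keap1 moves from 0.72 to -1.08 and -0.93.

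Levels of the 9 genes were compared with each other in CPM per kilobase of exon. Hmox1 was the most abundant, at 250.4 ± 1.33 in K68R and 252 ± 0.923 in WT, at the 98.5 percentile of genes tested. Sqstm1 followed at 95.7 ± 0.979 and 81.4 ± 0.591 (SD, n = 3). Nfe2l2, Gclm, Nqo1 and Gclc lay between 21.98 and 27.6 in K68R and between 17.6 and 34.2 in WT. Neighbours in this order overlapped in K68R for Gclm with Nqo1 and for Nqo1 with Gclc, and in WT for Nfe2l2 with Nqo1. Keap1 was at 9.63 ± 0.511 in K68R and 5.85 ± 0.179 in WT, Slc7a11 at 2.31 ± 0.0274 and 1.51 ± 0.0452, and Osgin1 at 1.24 ± 0.112 and 0.637 ± 0.00887 (SD, n = 3). Per kilobase of the longest coding transcript, Sqstm1 was at 204 in K68R and 173 in WT, Nqo1 at 49.9 and 67.9, and Gclm at 9.09 and 12.7, so the middle of the order depends on the length used. Together the 9 genes took 0.129% to 0.130% of counts in K68R and 0.128% to 0.129% in WT.

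The other genes that act on NRF2 were mostly higher in K68R in the counts as deposited. Of 18 regulators and partners 17 were tested, with 12 higher and 2 lower, 3 not called and a median log2 fold change of 0.88 beside -0.01 for all genes. These calls were 70.6% and 11.8% of the list, beside 40.8% and 40.5% of all genes. Their median length was 6647 exonic bases, against 3519 for all genes tested. With union offsets the calls were 7 higher and 7 lower (median 0.03), beside 33.6% and 42.3% of all genes. With transcript offsets they were 9 higher and 5 lower (median 0.21), beside 32.8% and 42.4%. The histone acetyltransferases Crebbp and Ep300, coactivators that bind NRF2 among many factors, had the largest increases by the naming rule, which asks for 5 CPM or more in the higher genotype only. Crebbp was at 45.7 ± 2.22 CPM in K68R against 2.76 ± 0.124 CPM in WT, and Ep300 at 121 ± 2.18 and 12.6 ± 0.454 CPM (SD, n = 3). Their log2 fold changes of 4.05 and 3.26 were 2.79 and 2.25 with union offsets and 1.83 and 1.44 with transcript offsets. Trim21, a ubiquitin ligase that binds p62, was 3.43-fold lower, at 4.36 ± 0.426 against 14.9 ± 0.439 CPM, with a log2 fold change of -1.78, and of -1.49 and -1.48 with union and transcript offsets. Rbx1, the RING subunit of the CUL3 ligase, was lower by a factor of 1.52, with 81.0 ± 0.981 against 123 ± 2.85 CPM (SD, n = 3). Its log2 fold change of -0.61 was -0.19 with either kind of offsets.

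The following regulators and partners were chosen for mention after their values were seen. Cul3, the scaffold of the ligase, stood at 147 ± 2.58 CPM in K68R against 152 ± 3.91 CPM in WT (SD, n = 3) and was not called (edgeR, adjusted p = 0.0827). Bach1, a repressor that competes with NRF2 for the same elements, stood at 71.7 ± 1.03 and 74.8 ± 1.80 CPM (SD, n = 3) and was not called either (edgeR, adjusted p = 0.0905). With union and transcript offsets Cul3 was called higher, at 0.28 and 0.22, and Bach1 lower, at -0.15 and -0.26 (log2). The 3 small MAF partners Maff, Mafk and Mafg were 1.84-fold, 1.92-fold and 2.06-fold higher. With transcript offsets Maff was still higher at 0.57, Mafk was at 0.05 and not called, and Mafg was lower at -0.47 (log2). With union offsets all 3 were lower, at -0.16, -1.55 and -0.96. Nfe2l1, the relative of NRF2 that drives proteasome genes, was higher by a factor of 3.48, with 266 ± 6.60 against 76.2 ± 1.71 CPM (SD, n = 3). Its log2 fold change was 0.72 with union and 0.60 with transcript offsets.

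**Figure D5:**
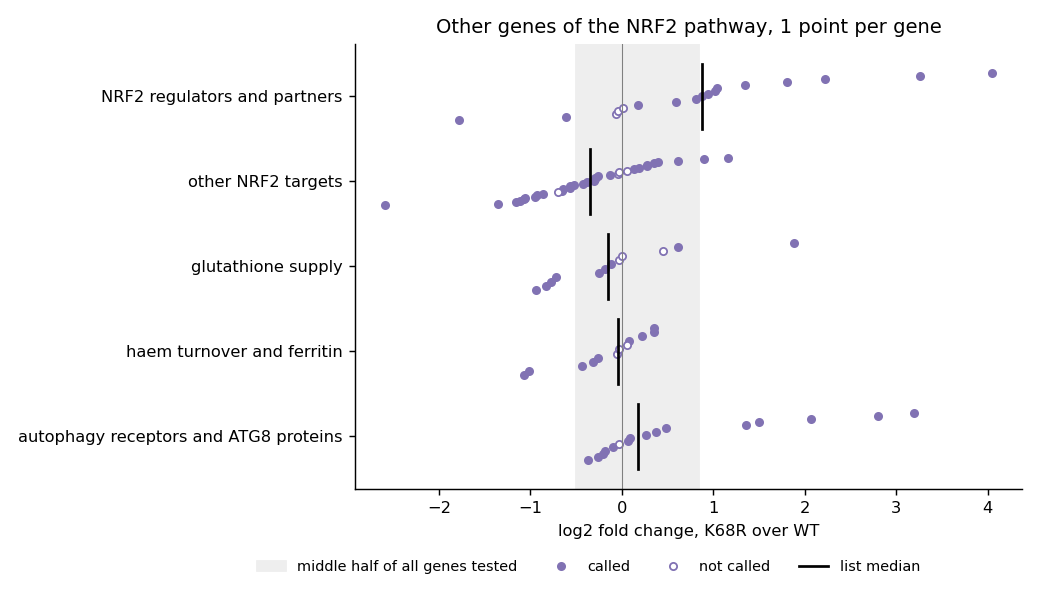
Log2 fold change of K68R over WT (horizontal axis) of the tested genes of 5 lists, 1 point per gene, filled where called and open where not; black lines are list medians and the grey band spans the quartiles of all genes tested, from -0.50 to 0.85. The median of the regulators lies just above the band and those of the other lists lie inside it.

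Among 37 further NRF2 targets, most of those called were lower in K68R. Of 34 tested, 9 were higher and 21 lower, 4 were not called, and the median log2 fold change was -0.34. It was -0.20 and -0.32 with union and transcript offsets. Of those tested 26.5% were higher and 61.8% lower, beside 40.8% and 40.5% of all genes, whose medians were -0.01, -0.07 and -0.07. The calls were 12 higher and 18 lower with union offsets, beside 33.6% and 42.3% of all genes. With transcript offsets they were 10 and 20, beside 32.8% and 42.4%. Mgst1, a microsomal glutathione transferase, was at 28.5 ± 0.742 CPM in K68R against 72.6 ± 0.732 CPM in WT. Ugdh, which makes UDP-glucuronate for conjugation, was at 226 ± 2.70 and 488 ± 6.36 CPM (SD, n = 3). Their log2 fold changes of -1.35 and -1.11 were -0.81 and -0.75 with union offsets and -0.84 and -0.79 with transcript offsets. The conjugate exporters named by the rule, Abcc4 and Abcc3, had log2 fold changes of 1.16 and 0.89. Abcc3 reached 5 CPM only in K68R, at 7.11 ± 0.453 against 3.83 ± 0.263 CPM (SD, n = 3). Abcc4 was at 0.38 and 0.56 with union and transcript offsets, while Abcc3 was at -0.07 and not called with the first and lower at -0.47 with the second. Of the other targets whose promoter sequence is printed above, Txnrd1, the cytosolic thioredoxin reductase, had a log2 fold change of 0.27, and Prdx1, a peroxiredoxin, of -0.31. These were 0.14 and 0.13 with union offsets and 0.21 and 0.04 with transcript offsets, so Prdx1 changed sign. Gsta2, Gstm3 and Abcc2 did not pass the filter on low counts, and Gstm3 had no counts in any library.

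Genes of glutathione supply other than Slc7a11, Gclc and Gclm were called in both directions. The list also holds genes of glutathione breakdown, among them Chac1, Chac2, Ggct and Ggt7, so its counts do not describe supply alone. Chac1 and Chac2 were lower, at -0.77 and -0.73 (log2), and stayed lower with both kinds of offsets. Ggct and Ggt7 were not called without offsets. Ggt7 was called lower with union and transcript offsets, at -1.10 and -1.09 (log2). Ggct was called higher with union offsets, at 0.43, and was at 0.04 and not called with transcript offsets. Of 12 tested out of 14, 2 were higher and 7 lower, 3 were not called, and the median log2 fold change was -0.15. These are 16.7% and 58.3% of the genes tested in the list, beside 40.8% and 40.5% of all genes, whose median was -0.01. With union offsets 4 were higher and 6 lower (median -0.30), beside 33.6% and 42.3% of all genes. With transcript offsets 2 were higher and 7 lower (median -0.31), beside 32.8% and 42.4%. Slc1a5, a neutral amino acid transporter that imports glutamine, was lower by a factor of 1.92, with 35.03 ± 0.764 against 67.4 ± 0.875 CPM, and Cth, which makes cysteine from cystathionine, was lower by a factor of 1.77, with 4.12 ± 0.488 against 7.36 ± 0.712 CPM (SD, n = 3). Both stayed lower, at -1.59 and -0.38 with union offsets and at -1.68 and -0.46 with transcript offsets (log2). Cth reached 5 CPM only in WT. Slc1a4, a relative of Slc1a5, was 1.53-fold higher, and Oplah, which opens the ring of oxoproline, was 3.69-fold higher. Oplah, at 6.69 ± 0.156 against 1.84 ± 0.489 CPM (SD, n = 3), reached 5 CPM only in K68R, and was at -0.26 and -0.31 and not called with union and transcript offsets. Slc1a4 was at 0.23 and 0.13 (log2). Slc3a2, the heavy chain that carries Slc7a11 to the membrane and was named after its value was seen, was at 187 ± 1.21 CPM in K68R against 204 ± 4.95 CPM in WT (SD, n = 3). Its log2 fold change was -0.12 (edgeR, adjusted p = 1.79e-06), opposite in sign to the 0.62 of Slc7a11. It was -1.66 with union and -0.30 with transcript offsets.

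Genes of haem turnover and ferritin were called in both directions at shares near those of all genes. The list also holds genes of haem synthesis, among them Alas1, so its counts do not describe the breakdown of haem by Hmox1 alone. All 12 genes were tested, with 4 higher and 5 lower, 3 not called and a median log2 fold change of -0.04. These are 33.3% and 41.7%, beside 40.8% and 40.5% of all genes. With union offsets 5 were higher and 5 lower (median 0.01), beside 33.6% and 42.3% of all genes. With transcript offsets 5 were higher and 4 lower (median -0.02), beside 32.8% and 42.4%. Blvrb and Blvra, the biliverdin reductases that act on the product of haem oxygenase, were 2.10-fold and 2.02-fold lower. Blvrb was at 13.4 ± 0.708 CPM in K68R against 28.03 ± 1.151 CPM in WT, and Blvra at 9.37 ± 0.465 and 18.9 ± 0.653 CPM (SD, n = 3). Both stayed lower, each at -0.53 with union offsets and at -0.86 and -0.62 with transcript offsets (log2). The ferritin light chain gene Ftl1 rose 1.28-fold, to 6338 ± 49.7 from 4962 ± 42.4 CPM (SD, n = 3). The log2 fold change of Ftl1, 0.35, was 0.56 and 0.52 with union and transcript offsets. Fth1, the other ferritin gene of the list and named after its value was seen, was called lower. It was at 901 ± 3.75 CPM in K68R against 1083 ± 20.6 CPM in WT (SD, n = 3), a log2 fold change of -0.27. With union offsets Fth1 was called higher at 0.11, and with transcript offsets it was at 0.005 and not called. Ferritin genes have processed copies in the mouse genome, so their counts are less certain. Alas1, the first enzyme of haem synthesis, had a log2 fold change of 0.35, and of 0.06 and -0.05 with union and transcript offsets, when it was not called. The list shares Blvrb, Fth1, Ftl1 and Slc48a1 with the further NRF2 targets.

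Genes of autophagy, in which p62 acts as a receptor, were called in both directions. Besides receptors and ATG8 proteins the list holds genes of autophagy in general, such as Ulk1, so its counts do not describe selective autophagy alone. Of 16 tested, 10 were higher and 5 lower, 1 was not called, and the median log2 fold change was 0.17. These are 62.5% and 31.2%, beside 40.8% and 40.5% of all genes, whose median was -0.01. With union offsets 11 were higher and 4 lower (median 0.19), beside 33.6% and 42.3%. With transcript offsets 9 were higher and 3 lower (median 0.11), beside 32.8% and 42.4%. Ulk1, the kinase that starts autophagy, was at 42.1 ± 1.496 CPM in K68R against 4.58 ± 0.170 CPM in WT, and Wdfy3, a large scaffold for aggregates, at 118 ± 2.08 and 17.1 ± 0.336 CPM (SD, n = 3). Their log2 fold changes of 3.20 and 2.79 were 0.96 and 1.11 with union offsets and 0.44 and 0.12 with transcript offsets. Ulk1 reached the 5 CPM of the naming rule only in K68R. Tax1bp1, a receptor like p62, was 1.29-fold lower, and Gabarap, an ATG8 protein to which such receptors bind, was 1.202-fold lower. With union and transcript offsets Tax1bp1 was not called (edgeR, adjusted p = 0.814 and 0.881), and Gabarap turned to 0.16 and 0.09 (log2). Nbr1, the closest partner of p62 and named after its value was seen, was 1.30-fold higher, with a log2 fold change of 0.38, and of 0.41 and 0.30 with union and transcript offsets.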

How the data were processed

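Per the labels' protocols, RNA with an integrity number above 4 went into stranded poly(A) libraries. The authors deposited unnormalized counts of read pairs, with the exonic length of each gene. Per the file headers, featureCounts 2.0.6 counted read pairs over exons of the mm39 NCBI RefSeq annotation without a strand option. HISAT2 2.2.1 is named in the submitters' processing notes. All 6 libraries were used, and libraries of 1 genotype differed beyond sampling noise (chi-square per gene from 1.85 to 2.29).

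The 9 genes and all lists were chosen with earlier results of these data known. The test was that of edgeR 4.0.16 in R 4.3.3 (filterByExpr, TMM, robust quasi-likelihood F test, genotype alone in the model, Benjamini-Hochberg over all genes tested, threshold 0.05). It was tried on simulated data in which few genes changed and fold changes did not follow length or GC content, unlike here. The offsets were not tried there. Offsets came from a tensor smooth over log2 length and GC content, fitted per library with mgcv 1.9.3. GC content came from the longest GENCODE M21 transcript, joined by symbol, for 93.2% of genes tested and all 9 members. Besides the 9 genes and Sod2, the rule named for each list up to 2 called genes with the largest increase and up to 2 with the largest decrease with at least 5 CPM in whichever genotype was higher, a bound that a gene can pass in that genotype alone, and the 3 genes nearest to Nfe2l2. Alternatives were other normalizations and filters, DESeq2 1.42.0, limma-voom 3.58.1, a replicate block, the offsets, a 1.5-fold bound, an adjusted p under 0.01 and leaving out each library. Intervals cover the spread between libraries only.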

Additional observations from a re-analysis of the deposited data

How the results depend on the processing

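Calls rested mostly on the treatment of length and GC content and on the bound of the test. With union offsets the log2 fold change turned to -1.08 for Keap1, -0.86 for Sqstm1 and 0.29 for Hmox1, and with a replicate block added to -1.08, -0.86 and 0.29. The Nfe2l2 to Keap1 ratio then differed by 1.01. In both fits 3 members were called higher and 5 lower, the regulators 7 and 7, and glutathione supply 4 higher. With transcript offsets Keap1 turned to -0.93, Nfe2l2 to 0.080, Hmox1 to 0.25 and the ratio to 1.01, with 5 regulators and 3 autophagy genes lower. Hmox1 was at 0.013 with the 1 CPM filter. Against 1.5-fold, 6855 genes were called, with 2 members higher (Keap1 and Osgin1) and 0 lower, beside 26.1% and 14.9% of all genes (edgeR; 3 members were lower without the bound, and 3 by DESeq2). That bound left 1 regulator, 9 further targets, 4 of glutathione supply, 2 of haem turnover and 0 of autophagy lower, and 2 further targets, 1, 0 and 5 of the last 3 lists higher. Of the haem genes 2 were called higher with DESeq2, no filter, an adjusted p under 0.01 or upper quartile normalization, the last with 8 lower. Lower regulators numbered 4 with no filter or upper quartile normalization. With 1 library left out, higher haem genes numbered 2 to 5 (2 without K68R replicate 1 or 2 or WT replicate 1 or 2) and lower regulators 2 to 4 (4 without WT replicate 1 or 2). All 9 members kept direction and call without each library. The correlation of same-numbered libraries' deviations was -0.00947, 0.0135 and 0.0130, so no pairing by number was visible in the counts. These values cannot show whether the samples were prepared in pairs. The replicate block alone left 5 members higher and 3 lower, and the ratio differences at 0.80 and -0.94 (two-sided exact sign-flip permutation, p = 0.25, the smallest that 3 pairs allow). Depth limits Osgin1 most, with 45 to 97 counts per library.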
